A study of Mus musculus with 6 samples.

Results

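What changed in embryonic epidermis when Sox4 was lost on top of Sox11 was read as the gap between the double conditional knockout (Sox4/11 dcKO, dcKO here) and the Sox11 conditional knockout (Sox11 cKO). The 4 arrays of these genotypes, of 6 arrays in the series, were taken by their labels. Each of the arrays carried knockout epidermis in 1 dye and wild-type littermate epidermis in the other. A value is log2(knockout/wild type), and the difference is dcKO minus Sox11 cKO with the replicate number matched, so that a positive difference means a higher ratio in dcKO. Sox11 cKO lacked Sox11 and dcKO lacked both Sox11 and Sox4, each through Krt14-Cre, which acts in basal keratinocytes from a keratin promoter. Knockouts and controls were labelled as embryos of day 16 on the 129SvEx:C57BL/6 background, and the Krt14-Cre parents were FVB/N. Per the study's methods the floxed stock also carried a Sox12-/- allele, and whether an array's embryos did is not given in the sources used here. Whether the wild-type embryos carried Cre is not given either. Each genotype had 2 arrays from different embryos, so every value below rests on 2 replicates per genotype. Each genotype had littermates of its own as controls, so genotype and litter cannot be told apart.

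Sox4 and Sox11 are SoxC transcription factors, closely related proteins that bind the same DNA core through an HMG box and are known from embryonic progenitor cells. At this stage the epidermis stratifies. Basal cells express Krt5 and Krt14, suprabasal cells switch to Krt1 and Krt10, and the outermost living cells load the cornified envelope, a shell of cross-linked protein that makes the skin barrier. Many envelope proteins, among them the late cornified envelope (Lce) and small proline-rich (Sprr) families, loricrin, involucrin and filaggrin, are encoded side by side in the epidermal differentiation complex (EDC). The periderm, a temporary outer layer rich in simple keratins, covers the epidermis until the barrier is complete.

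The arrays passed a check of tissue. All 8 keratinocyte markers were well above background in every channel, and the median difference over them was -0.11. Between 38.3% and 39.4% of probes were well above background in the knockout channel of these arrays and between 39.0% and 42.3% in the wild-type channel. Sex differed between arrays. In Sox11 cKO replicate 2 the Y-linked Eif2s3y had a normalized log2 level of 4.42 in the wild type and 4.74 in the knockout, against 9.48 to 9.71 on the other 3 arrays, and Xist was at 9.49 and 9.13, against 4.47 to 4.93. Both channels of an array matched in this respect. Across all 55681 probes the differences of replicate 1 and replicate 2 correlated at r = 0.21 (Spearman 0.10), and at 0.38 over the 18526 probes well above background in both channels of all 4 arrays. These points share libraries, and probes are not independent.

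The difference passed an adjusted p of 0.05 for 91 probes, 70 higher in dcKO (0.126% of all probes) and 21 lower (0.0377%). With an absolute difference over 1.5 as well, 59 probes were called higher (0.106%) and 19 lower (0.0341%). The 59 probes stood for 48 named genes and 7 probes without a name. The 19 stood for 16 named genes and 2 probes without a name. Replicates 1 and 2 had the same sign for all 78 called probes, where 26.4% of all probes were above 0 in both and 27.1% below 0 in both. The call rests on the mean of these same differences and so favours a shared sign, which is no separate evidence. For the probes called higher the median ratio was -0.03 in Sox11 cKO and 2.56 in dcKO. For those called lower it was 0.55 and -1.61. All 59 probes called higher and 16 of the 19 called lower also passed the adjusted p for dcKO against its own wild type. No called probe passed for Sox11 cKO against its wild type. The count of 78 became 41 without Sox11 cKO replicate 2 and 152 without dcKO replicate 2. With the scanner software's own log ratios no probe was called, although 4118 had an unadjusted p under 0.05.

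**Figure D1:**
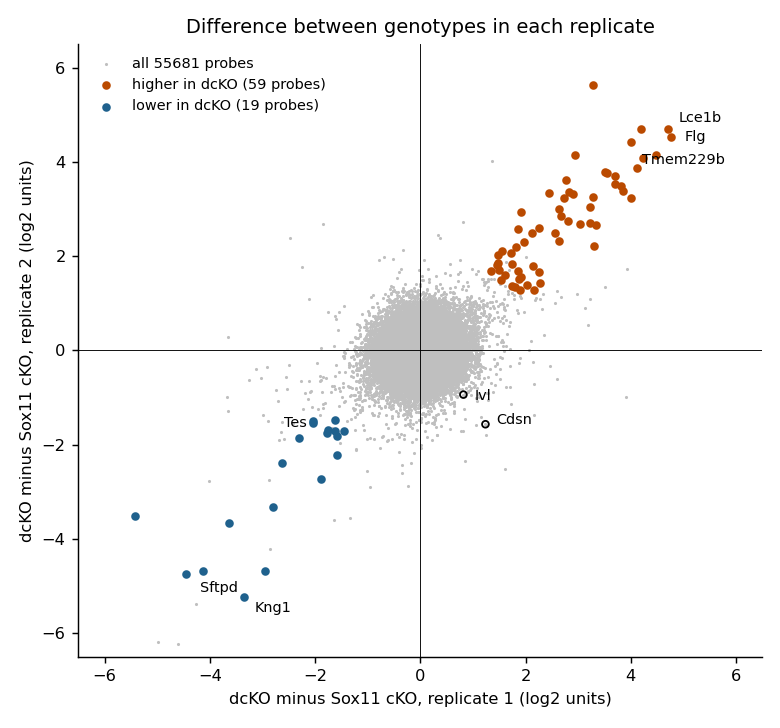
Difference dcKO minus Sox11 cKO in replicate 1 (horizontal axis) and replicate 2 (vertical axis), in log2 units, for all 55681 probes in grey, with the 59 probes called higher in orange and the 19 called lower in blue. Open circles mark Cdsn and Ivl, whose replicates point in opposite directions, while every called probe has the same sign in both. Calling on the mean of the replicates favours that shared sign.

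Late cornified envelope genes of the Lce1 branch led the list. Of 21 Lce genes on the array, 14 rose and none fell, where 0.126% of all probes rose. All 14 were Lce1 genes, with differences from 2.52 (Lce1f) to 4.70 (Lce1b). Lce1 genes encode small cysteine-rich proteins of the cornified envelope. Lce1b measured -0.48 and 0.34 on the Sox11 cKO arrays and 4.22 and 5.03 on the dcKO arrays. The genotypes were far apart, and the difference was 4.70 ± 0.18 (SE, adjusted p = 5.43e-05). Lce1m measured -0.19 and -0.36 in Sox11 cKO and 3.08 and 5.27 in dcKO. Its dcKO arrays lay far from each other but both were above Sox11 cKO, with a difference of 4.45 ± 0.45 (adjusted p = 0.00757). Lce1d measured -0.79 and 0.00 in Sox11 cKO and 2.43 and 3.05 in dcKO, a difference of 3.14 ± 0.21 (adjusted p = 0.000614). The knockout channel of Lce1d was not well above background on either Sox11 cKO array.

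The other Lce branches did not follow at this threshold. The 6 Lce3 genes had differences from -1.63 (Lce3f, adjusted p = 0.452) to 0.41 (Lce3b, adjusted p = 0.859), and Lce6a had 0.98 (adjusted p = 0.145). The median over all 21 Lce genes was 2.89, beside -0.00 over all probes. Lce1 genes are near-identical copies, and a probe of one may bind the RNA of another, so the number of separate Lce1 genes that rose is uncertain. Lce1c had probes of 3.62 and 4.44, Lce1a2 of 3.62 and 3.55, and Lce1i of 3.61 and 3.0.

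**Figure D2:**
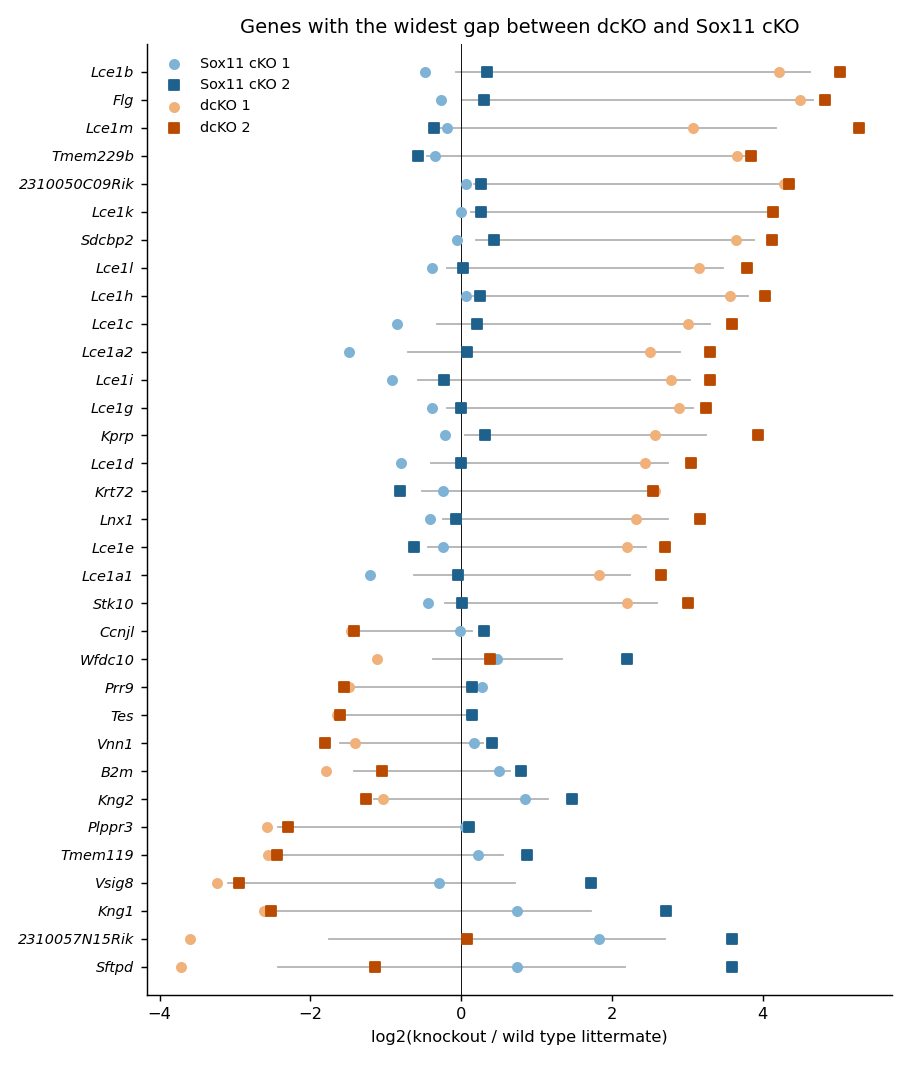
log2(knockout/wild type) on each Sox11 cKO array (blue) and dcKO array (orange) for the 20 genes called with the highest and 13 genes called with the lowest differences. Grey lines join the genotype means. In the upper genes Sox11 cKO lies near or below 0 and dcKO far above it, and among the lower genes dcKO lies below 0 except for replicate 2 of Wfdc10 and 2310057N15Rik.

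The start-site regions of 4 Lce1 genes and of Flg, Sdcbp2 and Tes are printed because these genes stand for the 3 kinds of change described here, the Lce1 cluster, other risers and a faller. Each is the 250 bases before the annotated start on the gene's own strand, from RefSeq on GRCm38.p6. Capitals mark 5 letter strings. These are ACAAAG (the core that SOX proteins bind), TGANTCA (AP-1) and GGAATG (TEAD), searched on both strands, TATAAA on the gene strand, and AGAATAAAA, also on the gene strand, which was picked after the Lce1 sequences were seen. The sequences lie at chr3:92656927-92657176 (minus strand) for Lce1b, chr3:92678997-92679246 (plus) for Lce1c, chr3:92765066-92765315 (minus) for Lce1h, chr3:93019062-93019311 (minus) for Lce1m, chr3:93273296-93273545 (plus) for Flg, chr2:151572373-151572622 (plus) for Sdcbp2 and chr6:17064899-17065148 (plus) for Tes.
Lce1b: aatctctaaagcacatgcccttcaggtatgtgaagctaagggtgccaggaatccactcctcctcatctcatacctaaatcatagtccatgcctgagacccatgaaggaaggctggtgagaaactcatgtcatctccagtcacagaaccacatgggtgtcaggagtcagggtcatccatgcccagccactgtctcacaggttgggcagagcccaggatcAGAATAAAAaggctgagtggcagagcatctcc
Lce1c: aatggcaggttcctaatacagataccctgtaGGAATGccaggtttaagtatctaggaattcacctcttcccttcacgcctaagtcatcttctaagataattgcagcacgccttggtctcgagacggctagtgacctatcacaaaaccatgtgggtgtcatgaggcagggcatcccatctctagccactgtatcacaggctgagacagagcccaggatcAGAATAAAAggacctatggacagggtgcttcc
Lce1h: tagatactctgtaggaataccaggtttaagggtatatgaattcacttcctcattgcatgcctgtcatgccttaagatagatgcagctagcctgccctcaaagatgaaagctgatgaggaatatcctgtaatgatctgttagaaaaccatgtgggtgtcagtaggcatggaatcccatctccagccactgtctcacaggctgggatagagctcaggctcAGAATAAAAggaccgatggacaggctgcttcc
Lce1m: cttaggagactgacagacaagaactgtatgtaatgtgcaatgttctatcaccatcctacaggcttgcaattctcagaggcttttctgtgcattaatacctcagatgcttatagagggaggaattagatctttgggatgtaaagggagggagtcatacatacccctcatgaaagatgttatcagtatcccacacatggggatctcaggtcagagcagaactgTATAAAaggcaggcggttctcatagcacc
Flg: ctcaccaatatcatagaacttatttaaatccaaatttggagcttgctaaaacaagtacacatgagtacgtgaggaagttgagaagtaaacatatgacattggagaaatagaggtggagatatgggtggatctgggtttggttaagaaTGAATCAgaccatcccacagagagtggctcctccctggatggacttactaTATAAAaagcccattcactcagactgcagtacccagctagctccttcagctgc
Sdcbp2: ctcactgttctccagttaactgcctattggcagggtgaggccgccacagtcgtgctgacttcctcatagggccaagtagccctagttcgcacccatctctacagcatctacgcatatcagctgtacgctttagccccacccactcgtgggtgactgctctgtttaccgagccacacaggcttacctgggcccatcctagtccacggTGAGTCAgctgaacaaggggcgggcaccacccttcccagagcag
Tes: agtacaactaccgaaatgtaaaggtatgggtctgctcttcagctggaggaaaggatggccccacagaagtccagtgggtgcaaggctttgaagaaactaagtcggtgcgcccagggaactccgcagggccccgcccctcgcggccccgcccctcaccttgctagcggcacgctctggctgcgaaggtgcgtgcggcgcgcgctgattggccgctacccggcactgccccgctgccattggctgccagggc
In Lce1b, Lce1c and Lce1h the run AGAATAAAA starts 32 bases before the start, where other genes such as Lce1m have TATAAA (29 bases before it). The run was held by 9 of 13 promoters of Lce genes called higher and by 0.277% of all 32851 promoters. None of the 34 promoters of other genes called higher held it, and Lce3a, which was not called, did. ACAAAG was in 14.9% of the 47 promoters of genes called higher, in 27.3% of the 11 promoters of genes called lower and in 16.5% of all promoters. TGANTCA was in 10.6%, 9.09% and 6.75%, GGAATG in 14.9%, 18.2% and 12.6%, and TATAAA in 14.9%, 18.2% and 7.59%. A match of letters is a description and not a binding site.

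The signal behind these ratios was uneven. Of the 59 probes called higher, 19 were not well above background in either channel of either Sox11 cKO array (the dark group). Another 19 were well above background in every channel of all 4 arrays. In 28 of the 59, the dark group included, the knockout channel was not well above background on either Sox11 cKO array. For the dark group the Sox11 cKO ratio compares background with background, so the difference is the dcKO ratio alone. Lce1b was in that group. On the dcKO arrays its normalized log2 level was 9.96 and 8.33 in the wild type and 14.18 and 13.36 in the knockout. On the Sox11 cKO arrays the wild type was at 5.27 and 4.69 and the knockout at 4.79 and 5.03, none of them well above background. The knockout channel of Lce1b was therefore at least 415-fold higher in dcKO than in Sox11 cKO (adjusted p = 0.000646), and the wild-type channel at least 16-fold higher on the dcKO arrays (adjusted p = 0.0557). These bounds compare the bright channel with the lowest signal well above background on each dim array, or with the probe's own level where that was higher.

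The wild-type littermates differed between the 2 genotypes, and each ratio is relative to its own littermates. The wild-type level was higher on the dcKO arrays for 51 of the 59 probes called higher, with a median of 1.34 log2 units beside -0.02 over all probes. Compared directly, 201 probes were called between the wild-type channels, 171 of them higher on the dcKO arrays, and 15 of the 59 were among these. The median wild-type difference was 4.16 for the Lce list and -1.01 for the periderm list. Krt4, a periderm keratin, had wild-type levels of 9.77 and 10.76 on the Sox11 cKO arrays and 7.07 and 7.58 on the dcKO arrays (difference -2.94, adjusted p = 0.000359). Litter age, litter background and sex were not separated by the design, and their part in these differences was not tested.

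**Figure D3:**
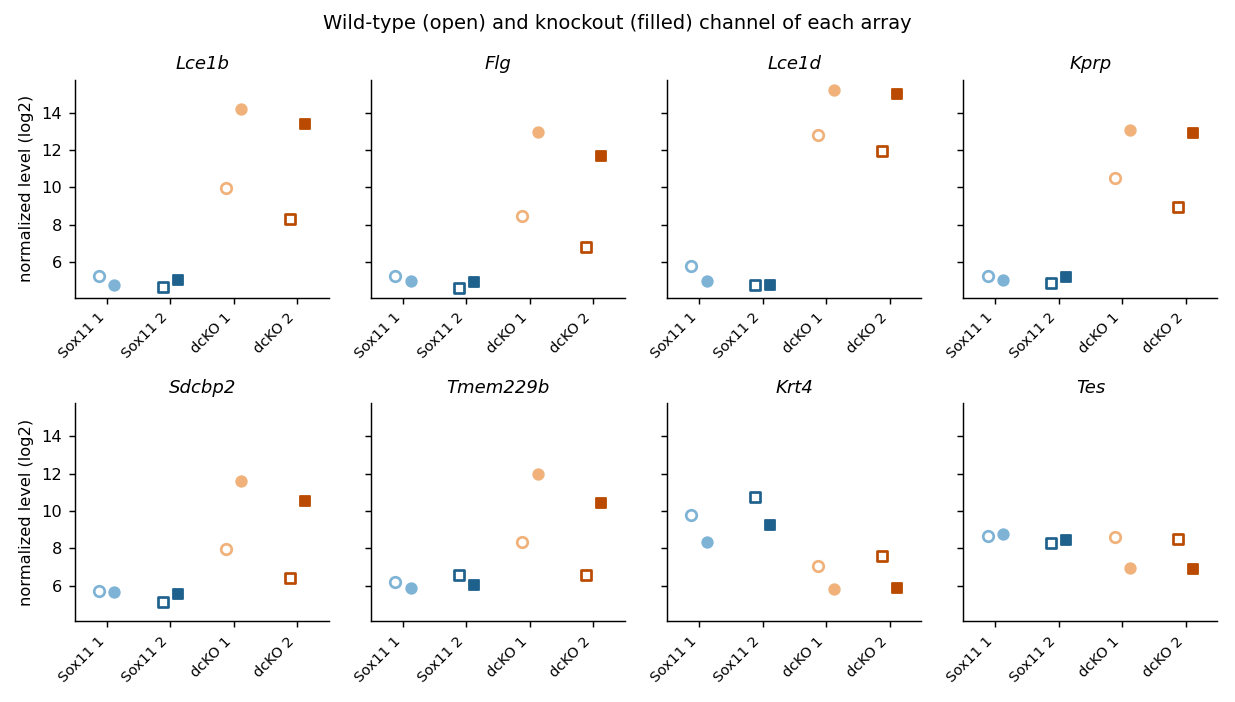
Normalized log2 level of the wild-type channel (open) and the knockout channel (filled) on each array for 8 genes. For Lce1b, Flg, Lce1d and Kprp the Sox11 cKO arrays are at or near background in both channels and the dcKO wild type is already higher, for Krt4 the wild type is lower on the dcKO arrays, and for Tes only the dcKO knockout channel stands apart.

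Filaggrin and some of its neighbours rose with Lce1. Flg, named from the study's own probe table and encoding the filament-bundling protein of the outer epidermis, measured -0.27 and 0.31 in Sox11 cKO and 4.50 and 4.83 in dcKO. The difference was 4.65 ± 0.18 (adjusted p = 5.43e-05). Neither channel was well above background in Sox11 cKO, and the knockout channel was at least 155-fold higher in dcKO. Kprp, a keratinocyte proline-rich protein, measured -0.21 and 0.32 in Sox11 cKO and 2.57 and 3.94 in dcKO, and rose by 3.20 (adjusted p = 0.00122). Lelp1, an Lce-like protein, rose by 2.30 (adjusted p = 0.0019), the uncharacterised EDC gene 2310050C09Rik by 4.15 (adjusted p = 0.000614), and Sprr2d by 1.57 (adjusted p = 0.0214). The probes of Sprr2a2 disagreed, at -0.17 (adjusted p = 0.904) for the brightest and 1.59 (adjusted p = 0.0459) for another. Prr9, a proline-rich EDC gene, fell by 1.73 on the log2 scale (adjusted p = 0.0377). Of 49 EDC genes in all, 19 rose and 1 fell, with a median of 0.51, where 0.126% of all probes rose and 0.0377% fell. Lce1 genes, whose probes may share RNA, made up 14 of the 19. Replicates went in opposite directions for 18 of the 49, and the wild-type level was higher on the dcKO arrays for 43.

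The best known envelope and suprabasal genes gave no such gap in the ratio. Loricrin (Lor) measured 0.08 and 1.31 in Sox11 cKO and 0.51 and 0.32 in dcKO. Involucrin (Ivl) measured 0.33 and 2.30 in Sox11 cKO and 1.15 and 1.36 in dcKO. Corneodesmosin (Cdsn), which holds cornified cells together, measured 0.20 and 3.68 in Sox11 cKO and 1.43 and 2.11 in dcKO. In each the Sox11 cKO arrays lay on both sides of the dcKO arrays, replicate 1 below and replicate 2 above. The differences were -0.28 (95% interval -1.04 to 0.48), -0.06 (-0.99 to 0.87) and -0.17 (-1.58 to 1.25). Krt1, at -0.21 (-1.08 to 0.66), and Krt10, at 0.11 (-0.71 to 0.92), had the same wide intervals. Casp14, a protease that processes filaggrin, had 0.23 (-0.32 to 0.78). The basal keratins Krt5 and Krt14 had -0.14 (-0.59 to 0.30) and 0.02 (-0.42 to 0.46). Flg2, a relative of Flg, had 2.82 (adjusted p = 0.142), with replicates of 3.92 and 1.73. The intervals bound the difference of ratios and not of levels. The wild-type level of Cdsn was itself 4.19 higher on the dcKO arrays (adjusted p = 0.0159). That of Ivl was 2.35 higher (0.0351) and that of Casp14 1.02 (0.0451). Knockout channels compared directly were also higher in dcKO, by 4.02 for Cdsn (adjusted p = 0.000108), 2.28 for Ivl (0.000492) and 1.25 for Casp14 (0.00492). For Lor, Krt1 and Krt10 neither channel passed, with knockout channels at -0.10, 0.46 and 0.53. Without Sox11 cKO replicate 2, the array whose sex differed, Lor became 0.44, Ivl 0.87 and Cdsn 1.34, and none passed the adjusted p.

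Outside the EDC the genes that rose had other roles. Tmem229b, a transmembrane protein well above background in every channel, measured -0.35 and -0.57 in Sox11 cKO and 3.66 and 3.84 in dcKO. This was a difference of 4.21 ± 0.20 (adjusted p = 0.000119), and its wild-type level moved by 1.04 (adjusted p = 0.61). Sdcbp2 (syntenin 2, a PDZ adaptor) measured -0.06 and 0.44 in Sox11 cKO and 3.65 and 4.13 in dcKO, a difference of 3.70 ± 0.19 (adjusted p = 0.000198). Krt72, a keratin of the hair follicle's inner root sheath, measured -0.24 and -0.81 against 2.57 and 2.55, a difference of 3.09 (adjusted p = 0.000614). The knockout channel of Krt72 was not well above background on either Sox11 cKO array. Lnx1, an E3 ubiquitin ligase known to bind Numb, rose by 2.98 with a wild-type level that moved by -0.29, and its other probe rose by 2.13. Stk10, a serine/threonine kinase, rose by 2.82.

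Few proteases and lipid enzymes of the barrier passed. Klk7, a protease that releases cornified cells at the surface, measured 0.10 and -0.01 in Sox11 cKO and 2.34 and 2.58 in dcKO, and rose by 2.42 (adjusted p = 0.00143). Klk9 rose by 1.64 (adjusted p = 0.0151). Neither channel of Klk7 was well above background on the Sox11 cKO arrays. The wild-type level was higher on the dcKO arrays by 1.61 for Klk7 (adjusted p = 0.0171) and 2.44 for Klk9 (adjusted p = 0.00192). The other 11 kallikrein and Spink genes on the list did not pass, and the list's median was -0.05. Asah1, the acid ceramidase, rose by 1.33 (adjusted p = 0.0377) with its other probe at 1.52, and no other of 30 barrier lipid genes passed. Maf, a transcription factor of keratinocyte differentiation, measured 0.01 and 0.40 in Sox11 cKO and 1.78 and 1.57 in dcKO, a difference of 1.47 (adjusted p = 0.0449), and no other of 23 differentiation factors passed. Elf5, an ETS factor, measured -0.39 and -0.43 against -2.25 and -1.57, a difference of -1.49 (adjusted p = 0.0545).

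Sox4 was checked directly. Its 3 probes gave differences of -0.94 (adjusted p = 0.412), -1.06 (0.143) and -1.66 (0.0257). The last measured 0.07 and 0.09 in Sox11 cKO and -1.55 and -1.61 in dcKO, and its knockout channel was not well above background on either dcKO array. Probes of Sox11 were not well above background in any knockout channel, with differences of -0.19 and -0.76 (adjusted p = 0.87 and 0.633), so the arrays could not check loss of Sox11. Sox12 was at or near background, with -0.15 (adjusted p = 0.94).

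The genes lower in dcKO fell into those near 0 in Sox11 cKO and those above 0 there. In the former, Tes, a LIM-domain protein of focal adhesions, measured 0.12 and 0.14 in Sox11 cKO and -1.64 and -1.60 in dcKO. It fell by 1.76 on the log2 scale (SE 0.19, adjusted p = 0.0103), and its wild-type level moved by 0.06. Plppr3, of the phospholipid phosphatase family, measured 0.05 and 0.10 against -2.58 and -2.30 (difference -2.51, adjusted p = 0.00147). Ccnjl, a cyclin J relative, measured -0.01 and 0.30 against -1.46 and -1.42 (difference -1.58, adjusted p = 0.016). Tmem119, a transmembrane protein somewhat above 0 in Sox11 cKO and known from bone and microglia, measured 0.23 and 0.87 against -2.56 and -2.45 (difference -3.06, adjusted p = 0.000614).

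The mean Sox11 cKO ratio was above 0.5 for 11 of the 19 probes called lower, although none of these ratios passed against the wild type. Sftpd (surfactant protein D, a collectin) measured 0.74 and 3.60 in Sox11 cKO and -3.72 and -1.14 in dcKO, a difference of -4.60 ± 0.46 (adjusted p = 0.00675). Its other probe gave -3.65. The wild-type level of Sftpd was 3.09 higher on the dcKO arrays (adjusted p = 0.12). Its knockout channels compared directly gave -1.51 (adjusted p = 0.257), and in replicate 2 they were at 9.17 in Sox11 cKO and 9.21 in dcKO. Kng1, a kininogen, measured 0.74 and 2.72 against -2.61 and -2.52 (difference -4.29, adjusted p = 0.0105), and its relative Kng2, whose knockout channel was not well above background on either dcKO array, had -2.31 (adjusted p = 0.016). Vsig8, an immunoglobulin-domain protein of hair and nail cells, measured -0.29 and 1.73 against -3.24 and -2.94 (difference -3.81, adjusted p = 0.0208). The Sox11 cKO arrays lay far from each other in these genes, and neither overlapped dcKO. The uncharacterised 2310057N15Rik measured 1.82 and 3.59 against -3.59 and 0.08 (difference -4.46), while its wild-type level was 7.10 higher on the dcKO arrays, and the knockout channels compared directly gave 2.63. The pantetheinase Vnn1 had a difference of -1.91 and knockout channels of 0.75, and neither channel was well above background on the Sox11 cKO arrays. B2m (beta-2 microglobulin) had -2.08 (adjusted p = 0.0447), and Wfdc10, a whey acidic protein family gene whose knockout channel was not well above background on either dcKO array, -1.70 (adjusted p = 0.0103).

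Whether losing Sox4 did the same with and without Sox11 was asked against the 2 Sox4 cKO arrays. The difference minus the Sox4 cKO ratio was tested in the same fit and was called for 49 probes (0.088% of all), 40 above and 9 below. All 49 had also passed for the difference itself, and 39 of the 59 probes called higher were among them. Lce1b measured -0.52 and 0.45 in Sox4 cKO, and its difference exceeded the Sox4 cKO ratio by 4.73 (95% interval 4.23 to 5.23, adjusted p = 0.000467). Tmem229b had 4.03 (3.47 to 4.59) and Tmem119 -2.99 (-3.55 to -2.44, adjusted p = 0.0031). Flg measured 0.86 and 1.27 in Sox4 cKO, the highest of the genes named here as risers, and its difference still exceeded that ratio by 3.58. For Lce1b and Flg the Sox11 cKO ratio in these values compared background with background. Each genotype had its own litters, and the wild-type level of Lce1b was 4.16 higher on the dcKO than on the Sox11 cKO arrays. Litter and genotype therefore cannot be told apart here.

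For other genes no gap between the effects passed. Tes measured -1.38 and -1.68 in Sox4 cKO, and its effects differed by -0.22 (95% interval -0.75 to 0.30, adjusted p = 0.928). The lowest Sox4 probe differed by 0.30 (-0.29 to 0.89). Plppr3 measured -1.50 and -1.70 in Sox4 cKO and differed by -0.91 (-1.46 to -0.37, adjusted p = 0.665). Tmsb10, an actin-binding thymosin, measured -0.02 and -0.42 in Sox11 cKO, -1.19 and -1.39 in dcKO and -1.12 and -1.15 in Sox4 cKO. Its difference was -1.08 (adjusted p = 0.119) and its effects differed by 0.06 (-0.46 to 0.58). Krt17, a keratin of periderm and appendages, measured -0.01 and 0.04, then -1.08 and -1.66, then -0.91 and -0.97, with a difference of -1.38 (adjusted p = 0.0647). The difference passed for all 3 probes that passed in Sox4 cKO against its wild type, which were Tes, Plppr3 and that Sox4 probe. Over all probes the difference and the Sox4 cKO ratio correlated at r = 0.10, and at 0.27 over probes well above background.

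**Figure D4:**
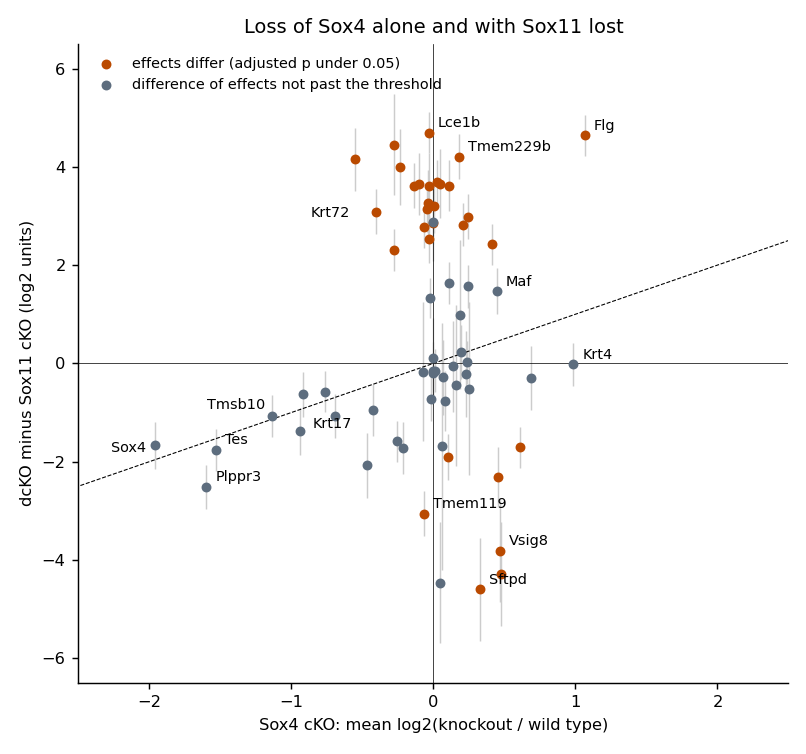
Mean log2(knockout/wild type) in Sox4 cKO (horizontal axis) against dcKO minus Sox11 cKO (vertical axis, bars are 95% intervals) for the probes of all named genes. The dashed line is equality. Among the orange points, whose effects differed at an adjusted p under 0.05, Flg lies furthest from 0 on the horizontal axis. Tes, Tmsb10 and the lowest Sox4 probe lie close to the line.

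The lists were then compared. The study's own activated targets, 25 genes partly chosen on these arrays and so no independent evidence, had a median difference of -0.78. No gene passed. The difference was below 0 in both replicates for 24 of 25, where 27.1% of all probes were. Values ran from -1.94 (Twist2) to -0.25 (Vcan), and Fscn1, an actin-bundling protein, had -0.57 (adjusted p = 0.593). The known SoxC targets Tead2, a Hippo pathway factor, and Tubb3, a neuronal tubulin, had -0.63 (adjusted p = 0.592) and -0.72 (0.507). Tead2 measured 0.03 and -0.50 in Sox11 cKO and -0.84 and -0.90 in dcKO. Tubb3 measured 0.49 and 0.86 in Sox11 cKO and -0.25 and 0.16 in dcKO. Its wild-type level was 1.44 higher on the dcKO arrays (adjusted p = 0.0273), and its knockout channels compared directly gave 0.72. The 4 repressed targets of the study lay between 0.44 and 0.82, above 0 in both replicates for all 4, and none passed.

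Markers of dermal fibroblasts were also mostly below 0. Of 15, none passed, 11 were below 0 in both replicates, and the median was -0.69. Col3a1, a dermal collagen, measured 1.40 and -0.70 in Sox11 cKO and -2.25 and -1.99 in dcKO, and its interval ran from -5.57 to 0.63. Twist2 and Pcolce of the activated list had the same pattern, at 1.47 and -0.73 and at 0.84 and -0.51 in Sox11 cKO. The summed level of the fibroblast markers was between 13.22 and 13.86 (log2) in every channel. A sum follows the brightest markers, and single collagens spread more widely. Channel levels ran from 7.09 to 10.30 for Col3a1 and from 8.38 to 11.77 for Col1a2. Col3a1 measured -4.36 and 1.27 in Sox4 cKO. Skeletal muscle markers had a median of -0.43, with 9 of 13 below 0 in both replicates, 7 of 13 dark on the Sox11 cKO arrays and summed levels of 8.84 to 10.13. Their part in the difference of any gene named here was not tested. In bulk tissue fewer cells of a type and less RNA per cell cannot be told apart.

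The periderm keratins Krt4 and Krt19 were below 0 on all 4 arrays, with no gap between the genotypes that passed. Krt4 measured -1.44 and -1.51 in Sox11 cKO and -1.27 and -1.72 in dcKO, a difference of -0.02 (95% interval -0.46 to 0.41). It measured 1.19 and 0.78 in Sox4 cKO. Krt19 measured -1.57 and -0.63 in Sox11 cKO and -1.54 and -1.26 in dcKO (difference -0.30, interval -0.95 to 0.35). Over 7 periderm genes the median difference was -0.02. Medians were also between -0.21 and 0.19 for suprabasal keratins (7 genes), basal genes (12), actin and adhesion genes (30), junction genes (17), cell cycle genes (20), claudins (12), Notch genes (16), serpins of clade B (12), alarmins (24), envelope cross-linking and processing genes (12) and Wnt or bud genes (15), and no gene of these lists passed.

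**Figure D5:**
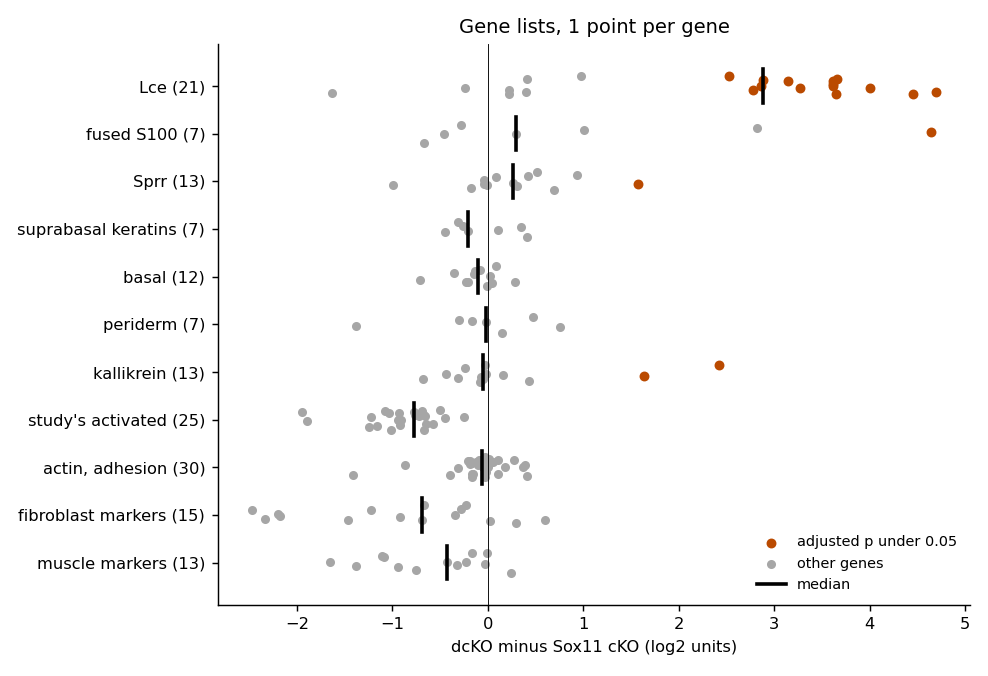
Difference dcKO minus Sox11 cKO for every gene of 11 lists (number of genes in brackets), with genes at an adjusted p under 0.05 in orange, others in grey and the median as a black bar. Orange points lie among Lce, fused S100 (Flg), Sprr and kallikrein genes, while the activated targets and the fibroblast markers lie mostly below 0 without a gene that passed.

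Some genes gave different answers in the replicates. Of genes well above background in every channel, wide gaps were found in Rec8, a meiotic cohesin (differences of 1.61 and -2.51), Pop4, an RNase P subunit (-3.66 and 0.27), Nccrp1 (2.59 and -0.62) and Xlr3b, an X-linked gene (-2.11 and 1.08). None of these passed the adjusted p. Pop4 reached 3.36 on Sox11 cKO replicate 1 alone and 3.19 and -3.07 on the Sox4 cKO arrays.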

How the data were processed

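RNA of embryonic day 16 epidermis was compared on 6 two-colour Agilent SurePrint G3 mouse arrays, 2 per genotype, all on 1 slide. Each array held knockout and wild-type littermate RNA, with the knockout in Cy5 for replicate 1 and in Cy3 for replicate 2. The scanner files deposited by the authors hold red and green intensity per spot and a log10 ratio (Agilent Feature Extraction 11.0.1.1 in the submitters' processing notes). The deposited series table holds log2 ratios, made by the authors with limma by normexp background correction at an offset of 16 and loess. Recomputed from the scanner intensities, log2(knockout/wild type) matched the table at r of at least 0.9999, which settled its scale and direction. Its column medians were near 0. The methods describe removal of the colour effect with ComBat, which the table does not carry.

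The main analysis fitted limma 3.58.1 (R 4.3.3) to 55681 probes of the table, with a coefficient per genotype and one for dye, over all 6 arrays so that they share 1 estimate of spread. With swapped dyes, dye and replicate number are the same term. The arrays' deviations from the genotype means correlated by replicate number at 0.26, 0.31 and 0.33. Since number and dye are the same term, these correlations cannot tell a pairing of arrays by number from a dye effect. P-values were adjusted by Benjamini-Hochberg over all probes. A probe was called at an adjusted p under 0.05 and an absolute difference over 1.5. Normalized channel levels were taken from the scanner intensities. A bound ("at least") uses the lowest signal well above background, or the probe's own level where that was higher. The number of arrays limits the precision. Where probes of 1 gene differed the brightest stood for it, and 28535 probes had a gene name. Named were the 20 highest and up to 15 lowest called genes, listed genes past the adjusted p, fixed comparison genes, and the 5 genes with the widest gap between replicates, and some results of this rule are not reported here. Members and lists were chosen with earlier results of these data known. The authors' own tables of fold changes were not used, and the fit was tested on simulated data. Alternatives covered background correction, the scanner's ratio, array scaling, ComBat, the replicate block, the arrays fitted, dim probes, each array left out and, chosen after seeing the data, the orientation given to ComBat and a direct comparison of wild-type channels.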

Additional observations from a re-analysis of the deposited data

Results flagged for a closer look

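For the genes below, the difference dcKO minus Sox11 cKO departed from the Sox4 cKO ratio, by a test of the difference between the 2 (adjusted p from 0.000467 to 0.0487, limma). The value is the difference minus the Sox4 cKO ratio, in log2 units. Among Lce genes it was 4.73 for Lce1b, 4.73 for Lce1m, 4.24 for Lce1k, 3.75 for Lce1c, 3.74 for Lce1h, 3.64 for Lce1i, 3.61 for Lce1l, 3.51 for Lce1a2, 3.31 for Lce1g, 3.18 for Lce1d, 2.87 for Lce1a1, 2.84 for Lce1j and 2.55 for Lce1f. Among other EDC genes it was 4.70 for 2310050C09Rik, 3.58 for Flg, 3.19 for Kprp and 2.58 for Lelp1. Outside the EDC it was 4.03 for Tmem229b, 3.67 for Sdcbp2, 3.49 for Krt72, 2.74 for Lnx1, 2.61 for Stk10 and 2.01 for Klk7. It was negative for Sftpd at -4.93, Kng1 at -4.77, Vsig8 at -4.28, Tmem119 at -2.99, Kng2 at -2.77, Wfdc10 at -2.32 and Vnn1 at -2.01. The genotypes had different litters, so litter and genotype cannot be told apart in these values. On the Sox11 cKO arrays neither channel was well above background for Lce1b, Lce1k, Lce1h, Lce1g, Lce1f, 2310050C09Rik, Flg, Kprp, Lelp1, Stk10, Klk7 and Vnn1. Their Sox11 cKO ratio compared background with background. For Lce1d, Lce1i, Lce1l and Krt72 the knockout channel alone was not well above background on either Sox11 cKO array. The knockout channels of Vnn1 compared directly gave 0.75, against its value of -2.01 here.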

How the results depend on the processing

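All 78 called probes kept their direction under every alternative except the direct comparison of knockout channels, where 73 did. Without the replicate block 56 probes were called, all among the 78, while 57 passed the adjusted p (91 with it) and 24 differed from Sox4 cKO (49 with it). The count of calls (78) was 0 with the scanner's log ratio and 390 between knockout channels, and 41 to 152 with 1 array left out. The count past the adjusted p was 322 at an offset of 50, 258 without background subtraction, 0 with the scanner's ratio, 690 with ComBat, 1523 between knockout channels and 41 to 155 with 1 array left out. The count differing from Sox4 cKO was 0 with the scanner's ratio, 31 over probes well above background and 23 to 93 with 1 array left out. The EDC median (0.51) was 0.99 with the scanner's ratio, 0.95 over probes well above background and 2.5 between knockout channels. With 1 of the 4 compared arrays left out it was 0.81 to 1.09. It stayed at 0.51 without a Sox4 cKO array, which does not enter this difference. The periderm median (-0.02) was -0.54 between knockout channels and -0.23 to 0.52 with 1 array left out. The median of the study's activated targets (-0.78) was -0.67 at an offset of 50, -1.02 with the scanner's ratio, -0.90 over probes well above background, -0.93 between knockout channels and -0.91 to -0.62 with 1 array left out. The fibroblast median (-0.69) was -0.35, -1.32, -1.07 and -0.36 in the same order, and -1.0 to -0.13 with 1 array left out. The cause of these moves was not tested. Between knockout channels the sign turned for 2310057N15Rik (2.63), Vnn1 (0.75), Cdsn (4.02), Ivl (2.28), Krt1 (0.46), Pop4 (1.24) and Tubb3 (0.72). At an offset of 50 it turned for Cdsn (0.14), Ivl (0.0248) and Krt4 (0.30), without background subtraction for Cdsn (0.0421) and Krt4 (0.17), and with equal spread for Krt4 (0.0547). With 1 array left out the sign turned for genes that had not passed, over ranges of -0.18 to 0.64 (Casp14), -1.67 to 1.34 (Cdsn), -0.99 to 0.87 (Ivl), -1.04 to 0.62 (Krt1), -0.69 to 0.90 (Krt10), -0.15 to 0.19 (Krt14), -0.80 to 0.20 (Krt19), -0.21 to 0.16 (Krt4), -0.34 to 0.0543 (Krt5), -1.0 to 0.44 (Lor), -0.65 to 2.63 (Nccrp1), -4.27 to 0.88 (Pop4), -2.02 to 1.12 (Rec8), -0.62 to 0.32 (Sox12) and -2.37 to 1.34 (Xlr3b). With an array left out, the lone array of its genotype is assumed to vary like the others. ComBat was planned on Cy5/Cy3-oriented values, where batch and genotype terms could not be fitted together, and was run on knockout over wild type instead, a choice made after seeing the data. It called 96 probes, all 78 among them, counted no degree of freedom for the dye, and left 12905 probes with an unadjusted p under 0.05 (4016 in the reported fit). Tmsb10 (adjusted p = 0.0186), Krt17 (0.0229) and a further Sox4 probe (0.0260) passed with it. Signal near background limits the Sox11 cKO ratio of 28 of the 59 probes called higher, in both channels for 19 of them, and that of Vnn1. It also limits the dcKO ratio of Kng2, Wfdc10 and the called Sox4 probe.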
